A study of Homo sapiens with 14 samples.

Results

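Cell cycle regulators are the 42 genes for the cyclins, the cyclin-dependent kinases (CDKs) and their inhibitors, the CDC25 phosphatases and WEE1, the E2F factors, the RB family, 4 mitotic kinases and MYC. GATA3 regions near these genes were collected from a chromatin immunoprecipitation sequencing (ChIP-seq) study in MDA-MB-231 cells, a human cell line from triple-negative breast cancer. A region is a merged stretch of peaks from 12 peak lists, and it was counted for a gene when it overlapped the gene span or the 50 kb on either side. This gave 256 of 78999 regions, for 42 of 20037 protein-coding genes. The CCNB1 and CDK7 windows share 2 regions, so gene and region were linked 258 times.

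The cells carried wildtype GATA3 (WT), the point mutant A442M, in which an alanine is replaced by methionine, or G444E, in which a glycine is replaced by glutamate. Each form was studied untagged and with FLAG on its C-terminal end (WT-FLAG, A442M-FLAG, G444E-FLAG), in 2 replicates per group. Cells received no treatment and were harvested on day 3, and one antibody against GATA3 was used in all 12 libraries. According to the series' design text, the tag keeps GATA3 protein stable whether or not it is mutated. Empty-vector cells were not analysed here, and the comparisons have no list of background peaks. The labels do not say how GATA3 was introduced, whether a line is a clone or whether replicates were separate cultures, so p-values measure the spread between these libraries, which may be technical. A peak list holds no expression values, so the cell line was not checked against markers.

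GATA3, a transcription factor with zinc fingers, binds GATA sequences in enhancers and promoters and is known for its role in luminal cells of the breast. The genes described here drive and brake the cell division cycle. D cyclins with CDK4 and CDK6, then cyclin E with CDK2, phosphorylate RB proteins and release E2F factors, which switch on genes of DNA synthesis. Cyclins A and B with CDK1 carry the cell into mitosis, and CDK inhibitors of the CIP/KIP and INK4 families stop the kinases. A region near a gene does not make that gene a target of GATA3.

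RefSeq promoter windows (250 bases before to 50 after a start, GRCh38.p14) were at hand for 32 of the 42 genes, 47 windows in all. A called region overlapped 10 of the 47 windows (21.3%), which belong to 7 genes, against 12.4% of all 35116 windows. No window of these genes overlapped a region called in all 12 libraries, which 1.36% of all windows did. At gene starts the calls were therefore partial: CDC25C in 7 libraries, CDK4 in 6, CDK7 and an internal CCND3 start in 5, CCNA2, RBL1 and the outermost CCND3 start with a window in 2, and CDC25B in 1. Since no window met the rule of a region in all libraries, the 5 printed here were chosen after their values were seen, because a region reaches them and they hold the 4 letters GATA or, on the opposite strand, TATC. Every gene with such a window is shown once; a second CDC25C window overlaps the printed one. They are written 5′ to 3′ along the gene, CDK7 from the plus strand of the build and the others from the minus strand, with GATA and TATC in capitals.
CDK4 chr12:57752261-57752560: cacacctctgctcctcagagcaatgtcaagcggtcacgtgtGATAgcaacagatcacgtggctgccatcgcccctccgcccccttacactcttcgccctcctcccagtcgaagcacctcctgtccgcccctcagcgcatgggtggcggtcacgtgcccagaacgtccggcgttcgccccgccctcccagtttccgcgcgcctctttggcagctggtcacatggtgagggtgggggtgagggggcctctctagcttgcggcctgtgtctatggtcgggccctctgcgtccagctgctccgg
CCNA2 chr4:121823834-121824133: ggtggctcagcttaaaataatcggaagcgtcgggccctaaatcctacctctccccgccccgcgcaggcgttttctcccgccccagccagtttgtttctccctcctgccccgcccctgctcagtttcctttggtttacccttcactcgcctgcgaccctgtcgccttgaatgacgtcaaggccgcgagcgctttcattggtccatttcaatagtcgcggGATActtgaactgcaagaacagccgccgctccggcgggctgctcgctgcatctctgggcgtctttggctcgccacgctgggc
CDK7 chr5:69234636-69234935: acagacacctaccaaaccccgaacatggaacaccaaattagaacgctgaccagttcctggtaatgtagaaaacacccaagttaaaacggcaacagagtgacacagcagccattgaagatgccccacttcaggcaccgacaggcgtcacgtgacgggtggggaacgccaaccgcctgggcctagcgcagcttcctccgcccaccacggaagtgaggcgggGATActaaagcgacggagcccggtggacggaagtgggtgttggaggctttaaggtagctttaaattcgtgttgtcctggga
CDC25C chr5:138331755-138332054: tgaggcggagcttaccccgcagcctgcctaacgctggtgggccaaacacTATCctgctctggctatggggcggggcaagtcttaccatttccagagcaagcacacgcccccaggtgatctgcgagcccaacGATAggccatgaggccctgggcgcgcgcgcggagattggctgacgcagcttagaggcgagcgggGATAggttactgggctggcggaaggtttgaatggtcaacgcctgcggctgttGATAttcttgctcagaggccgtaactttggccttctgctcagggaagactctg
RBL1 chr20:37095948-37096247: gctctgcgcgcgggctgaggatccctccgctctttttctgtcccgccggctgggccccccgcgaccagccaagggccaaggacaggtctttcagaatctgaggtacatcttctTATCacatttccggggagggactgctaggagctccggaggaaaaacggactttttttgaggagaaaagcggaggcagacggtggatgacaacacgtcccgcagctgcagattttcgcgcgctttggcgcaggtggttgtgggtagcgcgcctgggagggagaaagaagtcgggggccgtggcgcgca
The CDK4 window, with 1 GATA at position 42, was reached by a region (chromosome 12, 57751768 to 57752397) called in WT replicate 1, A442M replicate 1, both WT-FLAG and both G444E-FLAG libraries. That region covers only part of the CDK4 window, and the GATA lies outside it. The CCNA2 window, with 1 GATA at position 219, was reached by a region of the WT-FLAG libraries alone, with a median percentile of 12.8. The CDK7 window, with 1 GATA at position 220, was reached by a region of 5 libraries, with a median percentile of 15.2. The CDC25C window, at an internal start of that gene, holds 3 GATA and 1 TATC, and its region had a median percentile of 17.6. In the RBL1 window 1 TATC lies at position 114. A match to 4 letters is common: GATA was found on either strand in 49.7% of all windows, and in 20 of the 47 windows of these genes.

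Most of the 42 genes had GATA3 regions nearby, and 3 had none. The number of regions per gene reached 24, with a median of 5.5, against 4 over all protein-coding genes. At least 1 region called in all 12 libraries lay near 24 of the 42 genes (57.1%), against 40.6% of protein-coding genes. All libraries called 40 of the 256 regions (15.6%), against 13.8% of all regions. A further 53 were called in 1 library only (20.7%, against 23.5%). These shares are descriptions, and regions of neighbouring genes are not independent.

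In the WT libraries 79 and 74 of these regions were called, in A442M 115 and 99, and in G444E 106 and 91. WT-FLAG had 153 and 142, A442M-FLAG 174 and 140, and G444E-FLAG 158 and 107. The lowest numbers were those of untagged WT, and the FLAG numbers lay above the untagged ones of the same genotype in every same-number pair. The lists themselves held 25248 to 51694 peaks, with read depth unknown. As a share of the regions each library called, the 42 genes held 0.281% to 0.301% in untagged WT and A442M, and 0.331% to 0.405% in the other 8 libraries, with no overlap. The 4 libraries of untagged WT and A442M also stood apart in peaks outside chromosomes 1 to 22, X and Y (57 to 110, against 16 to 25 in the other 8). For WT and A442M, a difference with the tag and this divide between libraries cannot be told apart.

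**Figure D1:**
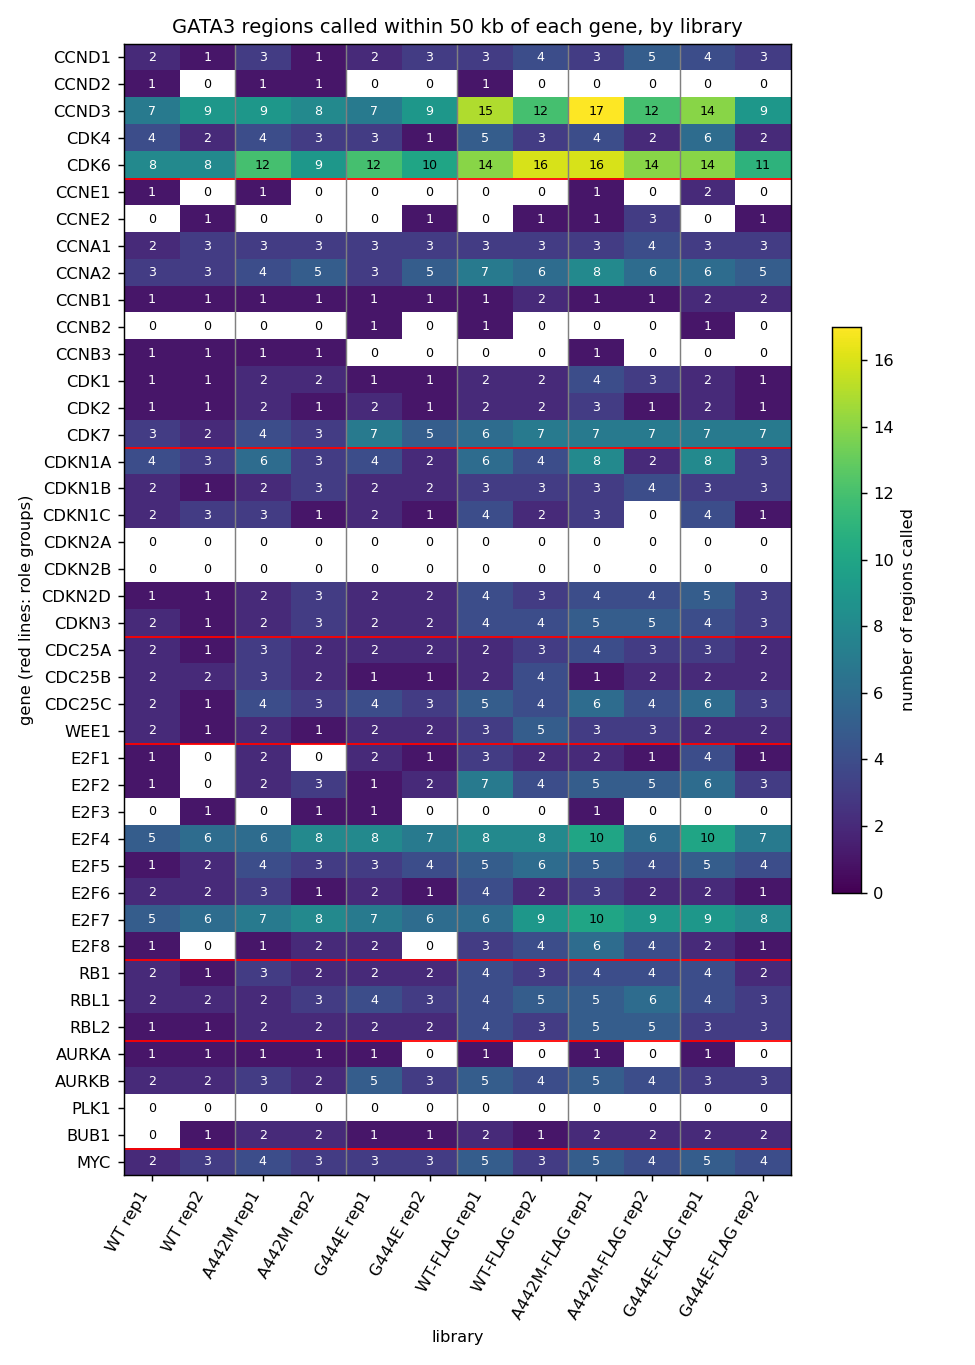
Number of GATA3 regions called within 50 kb of each gene (rows, in role groups divided by red lines) in each of the 12 libraries (columns, 2 replicates per group); colour and figures both give the number. CCND3 and CDK6 have the most regions, up to 17 and 16 in a library, and CDKN2A, CDKN2B and PLK1 have 0 in every library.

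D cyclins and their kinases held the most regions per gene, 60 regions for 5 genes with 9 of them in all libraries. Most lay near CDK6 and CCND3, which have long spans. Relative to window length, E2F4 held more regions than CCND3, and several genes held more than CDK6. CDK6, a kinase that starts RB phosphorylation, had 24 regions, 22 of them inside its span of 231653 bp on chromosome 7 (92604921 to 92836573). CDK6 regions numbered 8 and 8 in WT, 12 and 9 in A442M, 12 and 10 in G444E, 14 and 16 in WT-FLAG, 16 and 14 in A442M-FLAG and 14 and 11 in G444E-FLAG. Untagged WT was lowest, and WT-FLAG and A442M-FLAG were highest. Of its 4 regions called in all libraries, that from 92731350 to 92732605 stood highest, with a median percentile of 81.3. The percentile is the share of a library's own peaks with a score at or below that of the peak, so it ranks peaks within a list and shows no change between lists of unequal length. The 3 others had medians of 42.7 to 48.0.

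CCND3, which encodes cyclin D3, had 23 regions, 16 of them inside the gene on chromosome 6 (41934933 to 42050035). Its region numbers were 7 and 9 in WT, 9 and 8 in A442M, 7 and 9 in G444E, 15 and 12 in WT-FLAG, 17 and 12 in A442M-FLAG and 14 and 9 in G444E-FLAG. Only G444E-FLAG replicate 2 fell within the untagged range. A region near the lower end of the span (41936146 to 41936905) was called in all libraries with percentiles of 93.8 to 98.7. A neighbour of the gene, inside MED20 (41905831 to 41906607), was called in all 6 FLAG libraries and in G444E replicate 2, with percentiles of 90.2 and 95.5 in A442M-FLAG and 13.2 in G444E replicate 2. CCND1, for cyclin D1, had 6 regions, of which 1 was called in all libraries, 31508 bp beyond the gene. CDK4 had 6 with 0 in all libraries, and CCND2, for cyclin D2, had 1 region, called in 4 libraries.

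The E, A and B cyclins with CDK1, CDK2 and CDK7 had 36 regions for 10 genes, 8 of them in all libraries. CCNA2, for the cyclin A of S phase and mitosis, held 3 of these, the most of the group. Its region 24447 bp downstream (chromosome 4, 121789516 to 121791997) had a median percentile of 93.3, with 66.2 in WT replicate 2 and 87.0 or more elsewhere. EXOSC9 had the nearest gene end there. CCNA2 regions numbered 3 and 3 in WT, 4 and 5 in A442M, 3 and 5 in G444E, 7 and 6 in WT-FLAG, 8 and 6 in A442M-FLAG and 6 and 5 in G444E-FLAG. CDK7, the kinase that activates other CDKs and is part of transcription factor TFIIH, had a region inside the gene (chromosome 5, 69238359 to 69239503) with percentiles of 70.4 and 70.4 in WT, 79.7 and 87.8 in A442M and 86.2 to 96.6 in the other 8 libraries. CDK7 regions numbered 3 and 2 in WT and 4 and 3 in A442M, while G444E had 7 and 5, WT-FLAG 6 and 7, and A442M-FLAG and G444E-FLAG 7 in each library. For CDK7 the 4 libraries of untagged WT and A442M lay below the other 8 without overlap, the divide seen on the contigs. How many of all genes have this order was not counted, so it cannot be called particular to CDK7.

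CDK1, the mitotic kinase, had 4 regions and CCNA1, the germline cyclin A, also had 4, of which 2 were called in all libraries. CCNB1, for cyclin B1, had 2, both shared with CDK7. The region inside CENPH (chromosome 5, 69206475 to 69207378) was called in all libraries and lies within both windows. CDK2 and CCNE2 had 3 regions each, CCNE1 and CCNB2 had 2 each, and CCNB3 had 1, and none of these was called in all libraries. The region by CCNE2 (chromosome 8, 94880351 to 94880935), which lies where CCNE2 and INTS8 overlap, was called in both A442M-FLAG libraries alone, with percentiles of 63.8 and 79.8. That upstream of CCNB3, inside AKAP4 (chromosome X, 50198354 to 50198847), was called in both WT and both A442M libraries and in A442M-FLAG replicate 1.

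Among the CDK inhibitors the CIP/KIP genes CDKN1A and CDKN1B had the regions with the highest scores. CDKN1A encodes p21, which p53 induces. The region 3263 bp downstream of it (chromosome 6, 36690595 to 36692506) had percentiles of 99.2 and 96.3 in WT, 99.6 to 99.9 in A442M and G444E and 99.8 or more in the FLAG libraries. A further one inside the gene (36680013 to 36680847) was called in all libraries as well, with a median percentile of 81.5. The region near CDKN1B, the gene of p27, lay 41124 bp upstream inside GPR19 (chromosome 12, 12675258 to 12676244), with percentiles from 97.4 to 99.9. GPR19 had the nearest gene end there, and CDKN1A the nearest to its own region. CDKN1C, the gene of p57, had 8 regions, 4 of them in a single library and 0 in all.

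CDKN2D, an INK4 inhibitor of CDK4 and CDK6, had 5 regions and CDKN3, a phosphatase that acts on CDKs, had 9, with 1 in all libraries each. CDKN2D regions numbered 1 and 1 in WT, 2 and 3 in A442M, 2 and 2 in G444E, 4 and 3 in WT-FLAG, 4 and 4 in A442M-FLAG and 5 and 3 in G444E-FLAG. CDKN3 regions numbered 2 and 1, 2 and 3, and 2 and 2 in the untagged groups in the same order, and 4 and 4, 5 and 5, and 4 and 3 with the tag. For both genes the tagged and untagged ranges met at 3 regions.

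CDKN2A and CDKN2B, the INK4 genes of p16 and p15, had no region in any library. They lie inside a stretch of 4169 kb on chromosome 9 (20792366 to 24961470) in which none of the 12 libraries called a peak. Of 78814 gaps between neighbouring regions 12 were at least this long, this one included. The stretch holds 24 protein-coding genes, among them MTAP and the type I interferon cluster. Of the other 11 gaps, 2 held more genes, on chromosomes 11 and Y, and 4 held 0. As background, MDA-MB-231 is known to lack CDKN2A through homozygous deletion. The copy number of the stretch was not tested here. PLK1, a mitotic kinase, was the third gene without a region. Its gap on chromosome 16 spans 274 kb (23510460 to 23784778), a length that 1.81% of gaps reach.

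**Figure D2:**
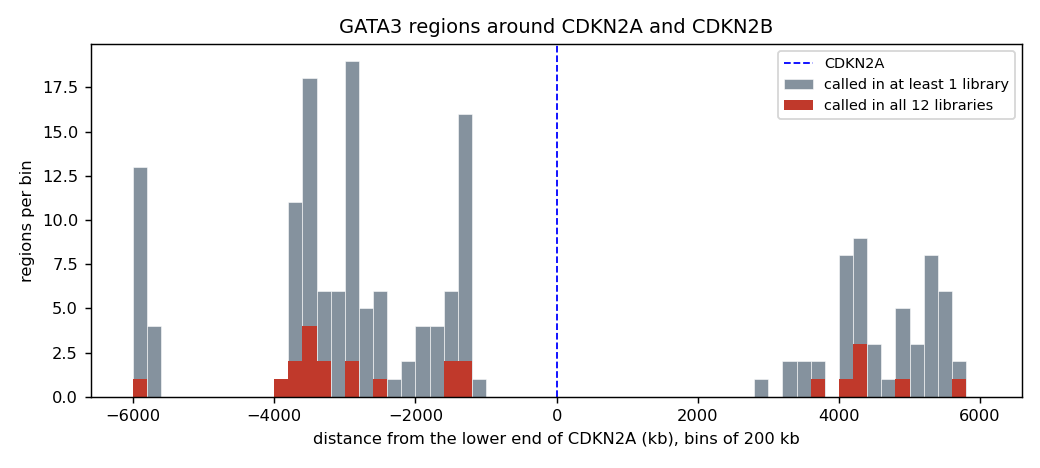
Regions per 200 kb bin (y axis) by distance in kb from the lower end of CDKN2A (x axis, dashed line at CDKN2A); grey bars count regions called in at least 1 library and red bars those called in all 12. No bar stands over the 4169 kb that hold CDKN2A and CDKN2B, and regions resume on both sides.

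WEE1 and the CDC25 phosphatases, which hold back and release CDK1, had 25 regions, with 1 called in all libraries for each of the 4 genes. The region for WEE1 lay near the edge of the window, 49712 bp from the gene and nearest to SWAP70 (chromosome 11, 9639697 to 9640565). Its percentiles were 88.8 and 85.7 in WT, 93.5 and 96.7 in A442M and 98.8 or more in the other 8 libraries. CDC25C had its shared region inside the gene (chromosome 5, 138334693 to 138335188; percentiles 68.5 to 92.1). Those of CDC25A and CDC25B lay 1176 and 5368 bp downstream, with medians of 79.9 and 59.1.

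E2F factors had 62 regions for 8 genes, and E2F4, a repressor of quiescent cells, led them with 5 regions in all libraries out of 12. No other of the 42 genes had as many. The region 13796 bp downstream of E2F4 (chromosome 16, 67212714 to 67213283) had percentiles of 94.1 to 97.9, and ELMO3 had the nearest gene end. One inside the gene (67196730 to 67197572) had a median of 77.6. The 3 remaining ones lay beyond E2F4 at 95, 24775 and 41819 bp, the first of them inside ELMO3 and the last inside FHOD1. For that at 24775 bp TMEM208 had the nearest gene end. E2F4 regions numbered 5 and 6 in WT, 6 and 8 in A442M, 8 and 7 in G444E, 8 and 8 in WT-FLAG, 10 and 6 in A442M-FLAG and 10 and 7 in G444E-FLAG, so tagged and untagged libraries overlapped.

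E2F7, an atypical repressor, had 14 regions with 2 in all libraries. Of these, that 46960 bp downstream (chromosome 12, 76973396 to 76974291) had percentiles of 88.6 to 98.9. Upstream of E2F7 lay 2 neighbouring regions with unlike patterns. The region from 77087465 to 77087777 was called in both WT, both A442M and both A442M-FLAG libraries and in G444E-FLAG replicate 1, with percentiles of 57.6 to 84.4. The one from 77090688 to 77091414 was called in every library except the untagged WT ones, with percentiles of 60.5 to 91.6. E2F2, an activator, had 11 regions and 0 in all libraries. E2F1, the best studied activator, had 4, E2F5 and E2F8 had 7 each, E2F6 had 6 with 1 in all libraries, and E2F3 had 1.

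Each of the 3 RB family genes had a region in all libraries, 4 of 16 in sum. RB1, the retinoblastoma gene, had it inside the gene (chromosome 13, 48451084 to 48451664, median percentile 82.5), and RBL1, the gene of p107, had 2, of which 1 lay inside its own span and 1 inside SAMHD1. RBL2, the gene of p130, had it 4470 bp upstream (chromosome 16, 53428109 to 53430001, median percentile 85.7). Mitotic kinases had few: AURKB had 5 regions, with 1 in all libraries 4360 bp downstream, BUB1 had 4 and AURKA 2. MYC, the growth-promoting transcription factor, had 6 regions. That called in all libraries began 28 bp beyond the span (chromosome 8, 127742979 to 127743821), with percentiles of 84.2 to 95.9. A second one, 19535 bp beyond (127762486 to 127762995), was called in all FLAG libraries and in G444E replicate 1. MYC regions numbered 2 and 3 in WT, 4 and 3 in A442M, 3 and 3 in G444E, 5 and 3 in WT-FLAG, 5 and 4 in A442M-FLAG and 5 and 4 in G444E-FLAG.

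**Figure D3:**
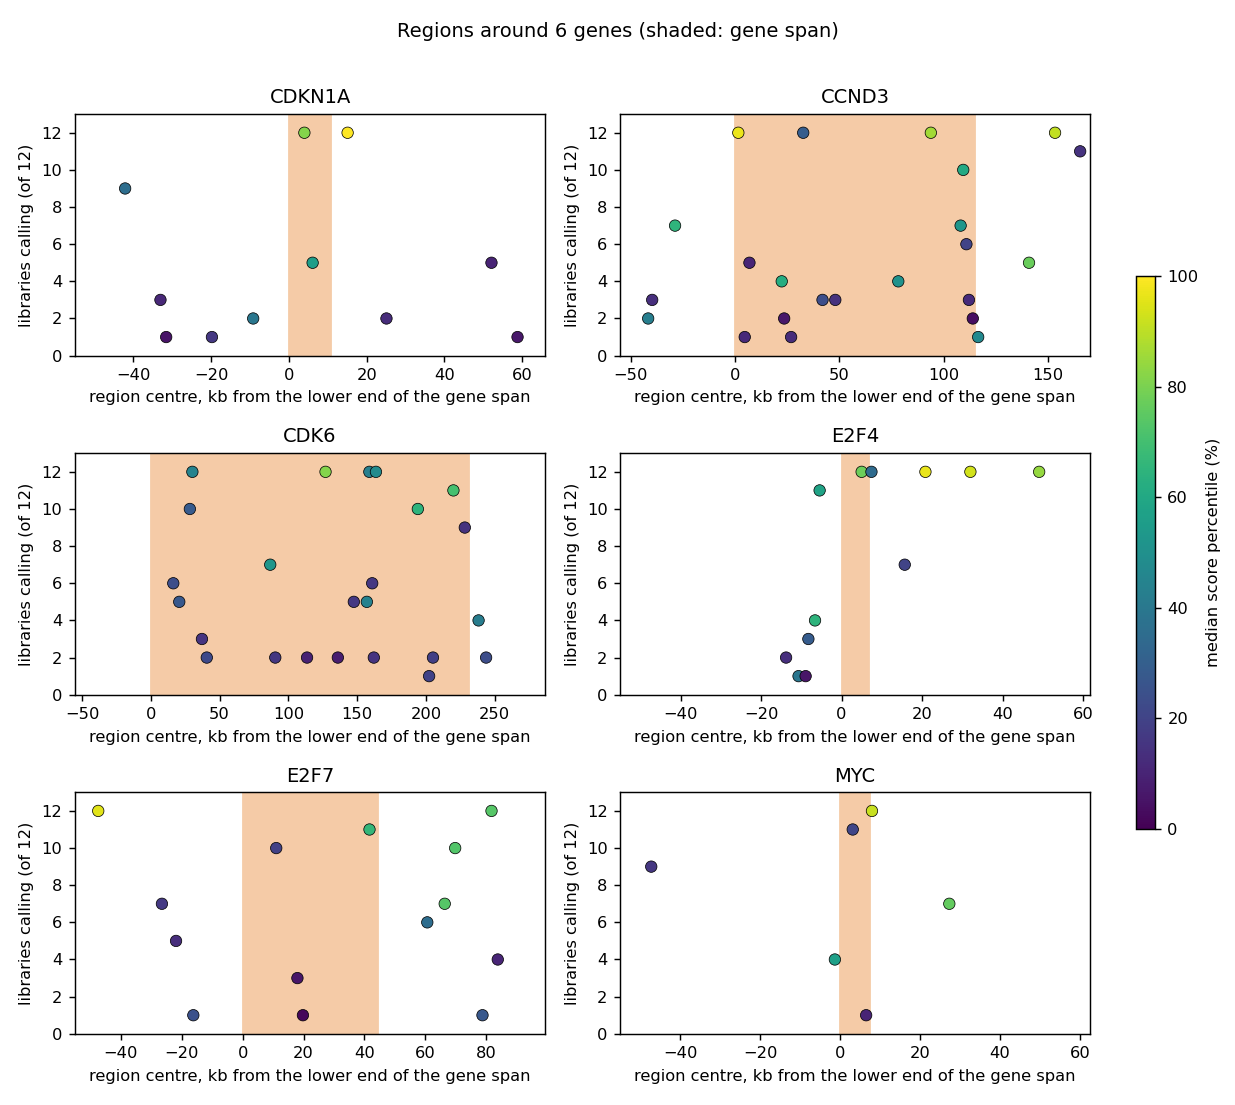
Each point is a region near 1 of 6 genes, placed by its centre in kb from the lower end of the gene span (x axis, span shaded), by the number of libraries that called it (y axis, of 12) and by its median score percentile (colour). CDK6 has its regions mostly inside the gene, while E2F4 and CDKN1A have their highest ranked regions outside it.

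The tag question was whether stabilised GATA3 has more regions at these genes. Region number per gene, as log2(regions + 1), was fitted by limma over the 12 libraries with genotype and tag as terms, for the 17721 genes with a region. With the tag, region number rose for 15 of 39 tested genes and fell for 0 (adjusted p under 0.05, Benjamini-Hochberg over all genes). Over all genes tested 17.9% rose and 1.29% fell. At unadjusted p under 0.05 there were 22 of the 39 in either direction, against 38.4% of all genes in either direction. Among the 22, CCNB3 fell, by 0.50. The median difference was 0.46 for the 39 genes and 0.33 for all genes. In role order the 15 were CCND1, CCND3 and CDK6, then CCNA2, CDK1 and CDK7, then CDKN1B, CDKN2D and CDKN3, then E2F2, E2F7 and E2F8, and RB1, RBL1 and RBL2.

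E2F2 had the greatest difference, 1.35 ± 0.29 (SE, limma adjusted p = 0.0174). Its regions numbered 1 and 0 in WT, 2 and 3 in A442M and 1 and 2 in G444E, against 7 and 4, 5 and 5, and 6 and 3 with the tag. The ranges met at 3 regions. E2F8, an atypical repressor, rose by 1.14 ± 0.32 (limma adjusted p = 0.0367), with 1 and 0, 1 and 2, and 2 and 0 regions untagged and 3 and 4, 6 and 4, and 2 and 1 with the tag. Only G444E-FLAG overlapped the untagged libraries. RBL2 rose by 0.86 ± 0.13 (limma adjusted p = 0.00787), the lowest adjusted p of these genes. RBL2 regions numbered 1 and 1, 2 and 2, and 2 and 2 untagged and 4 and 3, 5 and 5, and 3 and 3 with the tag, in the order WT, A442M, G444E. RBL2 alone of the 39 genes had every FLAG library above every untagged one (2.56%, against 2.01% of genes with a region), and 0 of the 39 had the reverse (0.0226% of genes).

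CDKN2D and CDKN3 each rose by 0.80 (SE 0.15 and 0.14, limma adjusted p = 0.0143 and 0.0108). CDK7 rose by 0.72 ± 0.16 (limma adjusted p = 0.0198), CCNA2 by 0.61 ± 0.14 (0.0198), CCND3 by 0.61 ± 0.14 (0.0195) and CDK6 by 0.49 ± 0.13 (0.0273). The smallest rise among the 15 was that of E2F7, 0.34 ± 0.10 (limma adjusted p = 0.0455), with 5 to 8 regions untagged and 6 to 10 with the tag.

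The 5 others that rose had few regions. CCND1 (log2 difference 0.68, limma adjusted p = 0.0494) had 1 to 3 regions untagged and 3 to 5 with the tag. CDK1 (0.48, 0.0286) had 1 or 2 regions untagged and 1 to 4 with the tag. CDKN1B (0.50, 0.0328) had 1 to 3 regions untagged and 3 or 4 with the tag. RB1 (0.59, 0.0400) and RBL1 (0.59, 0.0424) had 1 to 3 and 2 to 4 regions untagged and 2 to 4 and 3 to 6 with the tag. In all 5 genes the tagged and untagged ranges met or overlapped. MYC was just outside, with 0.42 ± 0.14 (limma adjusted p = 0.0549), as was E2F5, with 0.66 ± 0.21 (0.0518). With the replicate number as a block, MYC, CDC25C and E2F1 passed as well. CDKN1A gave 0.34 ± 0.32 (limma adjusted p = 0.452), E2F4 0.25 ± 0.14 (0.204) and CCNB3 -0.50 ± 0.20 (0.0974).

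The count of 15 changed with list length and without the 4 untagged WT and A442M libraries. With every list at the length of the shortest, 25248 peaks, 2 genes rose, CDK7 and RBL2 (limma, 273 of 16360 genes up and 192 down). Without those 4 libraries 0 did (7 of 39 at unadjusted p under 0.05 in either direction, where 1302 of 17070 genes were). Over all genes 54 then rose and 14 fell. Only G444E was left in both tag states there, 2 libraries against 2. A 0 from so few libraries cannot show that the 15 depended on the 4 left out. The count of 15 became 6 to 9 without any one library of WT, A442M, WT-FLAG or A442M-FLAG or without G444E-FLAG replicate 1. It became 12 to 17 without any one of the 3 others. Over all genes, 1265 of 17573 rose without A442M-FLAG replicate 1 and 4741 of 17705 without G444E-FLAG replicate 2, the extremes of these runs. E2F2, CCND3, CDKN2D, CDKN3 and RBL2 passed whichever library was left out. The share of all genes that did so was not counted, and of these genes RBL2 alone also passed with equal lists.

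**Figure D4:**
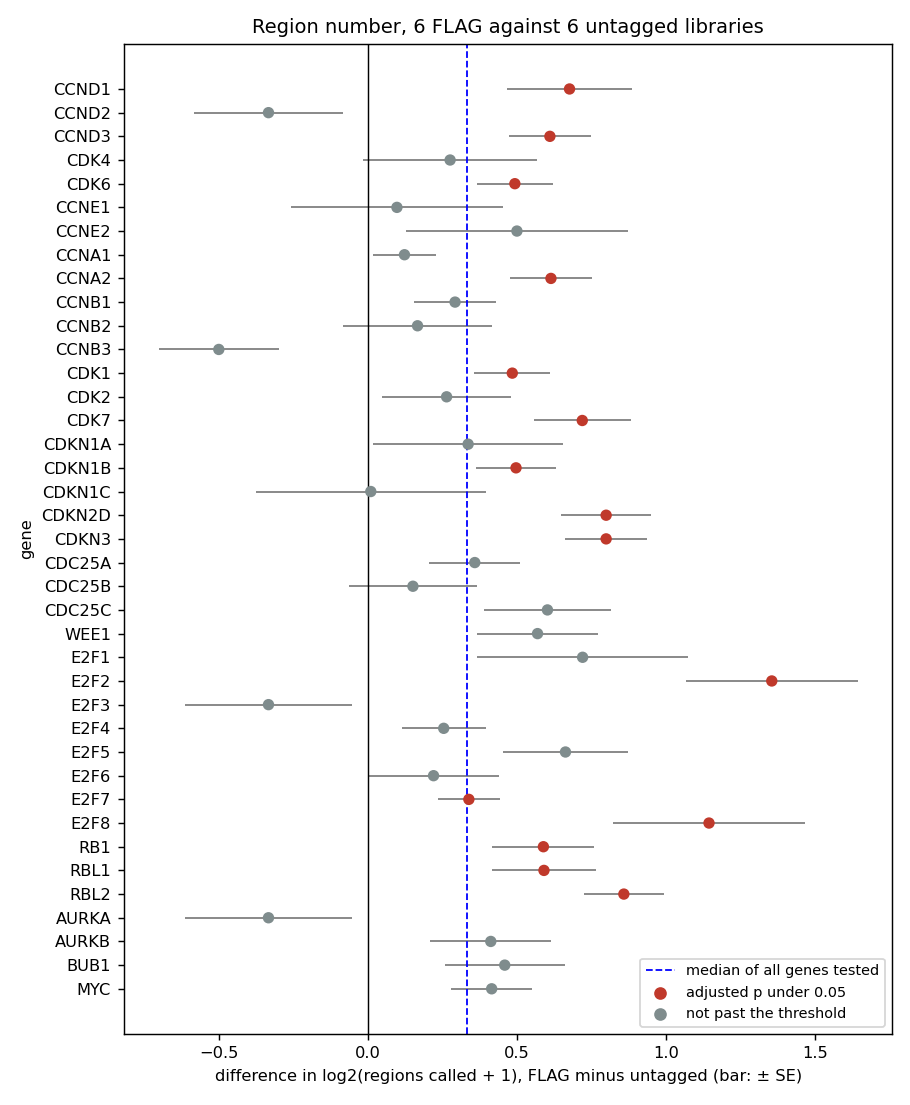
Difference in log2(regions called + 1) between 6 FLAG and 6 untagged libraries (x axis, bars ± SE from limma) for the 39 genes with a region (y axis, in role order); red points have an adjusted p under 0.05 and the dashed line is the median of all genes tested, 0.33. The 15 red points all lie above 0, with E2F2 farthest at 1.35.

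Single regions were tested for calls with Fisher's exact test over all regions. For FLAG against untagged, 0 of 54 testable regions of these genes passed (lowest Benjamini-Hochberg adjusted p = 0.104), and 0 of all 11777 testable regions did. At an unadjusted exact p under 0.05 there were 15 of the 54 (27.8%), all with more FLAG calls, against 11.3% of testable regions with more FLAG calls and 1.63% with fewer. With lists of equal length there were 4 of 26 (15.4%, against 7.16%), with a score of at least 10 there were 7 of 32 (21.9%, against 13.8%), and with peaks over 50% or more of a region 7 of 47 (14.9%, against 12.9%). The region 23727 bp downstream of E2F1 (chromosome 20, 33651105 to 33651750) was the one called in all 6 FLAG and no untagged libraries (exact p = 0.00216), with percentiles of 17.6 to 59.0. That by E2F8 (chromosome 11, 19253854 to 19254357) was called in 5 FLAG and 0 untagged libraries, with percentiles of 66.8 to 79.1. The region inside RB1 (48357565 to 48358443) had the same calls, with 80.8 and 78.9 in A442M-FLAG and 18.3 to 37.3 in the 3 other libraries.

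Within single genotypes, regions that both tagged libraries held and both untagged ones lacked were counted. With 2 libraries on each side the smallest p of an exact permutation test is 0.333, so none was run. Regions are ranked here by the lower of the 2 percentiles in the libraries that hold them. WT-FLAG had 41 regions of these genes absent from WT (21.5% of those called in any of the 4 libraries, against 16.8% of all regions), and 3 were absent the other way (1.57%, against 4.34%). The 41 lay near 22 of the 42 genes (52.4%, against 40.3% of protein-coding genes) and the 3 near 3 genes (7.14%, against 9.87%). The highest ranked were the region beyond E2F5 (chromosome 8, 85236354 to 85237033), with a lower percentile of 80.1, that upstream of CCNA2 inside BBS7 (chromosome 4, 121827657 to 121828358), with 77.8, and the MYC region at 127762486, with 76.1. In the opposite direction the E2F7 region at 77087465 led with 73.8, followed by one upstream of E2F6 inside GREB1 (chromosome 2, 11503581 to 11503885) and that by CCNB3.

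A442M-FLAG had 38 regions absent from A442M (17.7%, against 12.5%), near 23 genes (54.8%, against 36.2%). They were led by the CCND3 neighbour inside MED20, the MYC region at 127762486 and a further CCND3 region (41956774 to 41957864). The other way there was 1 (0.465%, against 4.71%), near CCND2 (chromosome 12, 4320563 to 4321055), so 2.38% of the genes had one, against 14.4%. G444E-FLAG, whose untagged partner is not among the libraries that stood apart, had 9 regions absent from G444E (4.89%, against 3.57%), near 9 genes (21.4%, against 11.7%), and 0 the other way (0.7% of all regions and 2.01% of protein-coding genes). They were led by those by E2F1, RBL2 and E2F2, all with lower percentiles under 18. Lists of equal length turned the last direction, with 2 and 5 regions.

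Between genotypes without the tag, the share of one-sided regions at the 42 genes was below that of all regions where A442M or WT held the region and slightly above it where G444E did. A442M had 7 absent from WT (4.90%, against 11% of all regions), near 6 genes (14.3%, against 27.1% of protein-coding genes), and WT had 0 absent from A442M (1.08% of all regions and 2.79% of protein-coding genes). The highest ranked were the E2F7 region at 77090688, the CCNA2 region at 121827657 and the E2F5 region at 85236354, with lower percentiles of 60.5, 51.9 and 48.1. G444E had 13 absent from WT (9.09%, against 8.72%), near 10 genes (23.8%, against 21.6%), led by the same E2F7 and E2F5 regions and one inside CDC25C (138312265 to 138313371). WT had 4 absent from G444E (2.80%, against 6.27%), near 4 genes (9.52%, against 11.5%), led by the E2F7 region at 77087465, with 73.8.

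The last untagged pair was A442M and G444E. A442M had 6 regions absent from G444E (3.75%, against 8.28%), near 6 genes (14.3%, against 18.6%). The first was the E2F7 region at 77087465, with 79.4, which was also called in G444E-FLAG replicate 1. The next was one downstream of CDKN1B inside APOLD1 (12758765 to 12759160), with 46.4. G444E had 3 absent from A442M (1.88%, against 1.38%), near CDKN1B, RBL2 and CDK7, which is 7.14% of the genes, against 5.5%. The direction turned to 3 and 7 with lists of equal length, to 6 and 8 with peaks over 50% or more of a region, and to 11 and 18 without G444E replicate 2.

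**Figure D5:**
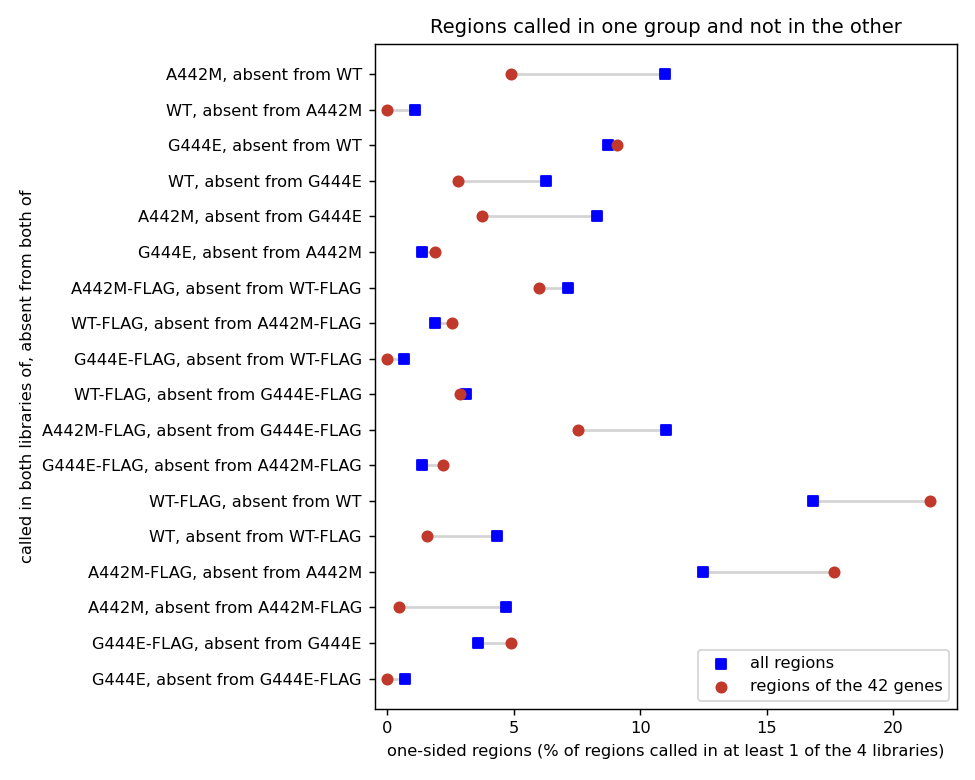
Regions held by both libraries of one group and lacking in both of another (y axis, 18 directions of 9 pairs), as percent of regions called in at least 1 of the 4 libraries (x axis), for the 42 genes (red points) and for all regions (blue squares). Red and blue lie close together in most rows, with the widest gaps for A442M absent from WT (4.90% and 11%), for A442M-FLAG absent from A442M (17.7% and 12.5%) and for WT-FLAG absent from WT (21.5% and 16.8%).

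With the tag, A442M-FLAG had 14 regions absent from WT-FLAG (6.01%, against 7.15%), near 12 genes (28.6%, against 23.3%). The other way there were 6 (2.58%, against 1.89%), near 5 genes (11.9%, against 8.56%). The A442M-FLAG side was led by the CCNE2 region, the E2F7 region at 77087465 and one 44925 bp downstream of BUB1 (chromosome 2, 110592297 to 110592603). The WT-FLAG side was led by the region at the CDK4 start. With lists of equal length both sides had 9, and without WT-FLAG replicate 2 the direction turned to 19 and 23. No region was held by G444E-FLAG and lacking in WT-FLAG (0.659% of all regions and 2.93% of protein-coding genes). WT-FLAG had 6 that G444E-FLAG lacked (2.87%, against 3.11%), near 5 genes (11.9%, against 11%), first one downstream of AURKB (chromosome 17, 8192314 to 8192754). Without G444E-FLAG replicate 2 these counts turned from 0 and 6 to 24 and 13. A442M-FLAG had 17 absent from G444E-FLAG (7.56%, against 11%), near 13 genes (31.0%, against 31.4%), led by the CCND3 region at 41956774 and the AURKB region. The other way there were 5 (2.22%, against 1.38%), near 6 genes (14.3%, against 6.08%), and without G444E-FLAG replicate 2 the direction turned to 24 and 27. The CCND3 region at 41956774 was called in A442M-FLAG (percentiles 81.9 and 85.7) and WT-FLAG (25.4 and 41.7) and in no other library.

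In the main fits and tests, which hold no replicate block, no genotype contrast passed at these genes. Fisher's exact test of 8 mutant against 4 WT libraries called 0 of 91 testable regions (0 also at an unadjusted exact p under 0.05, against 0.206% of testable regions with more mutant calls and 0.105% with fewer). Here too a region could pass the adjustment only if many others reached the smallest exact p, so the 0 does not show equal calls. By limma on region number, 0 of 39 genes passed for A442M against WT (0.0339% of all genes rose and 0% fell; 7 of the 39 at unadjusted p under 0.05, against 16.3% of all genes) and for G444E against WT (0% rose and 0.0451% fell; 1 of the 39 unadjusted, against 7.29%). For A442M against G444E 0 of 39 passed (1.16% of all genes rose and 0% fell; 3 at unadjusted p under 0.05, against 15.9%). CDK1 came nearest, with 0.73 ± 0.16 (limma adjusted p = 0.0574), and passed with the replicate number as a block (limma adjusted p = 0.0415). CDK1 regions numbered 2 and 2 in A442M and 1 and 1 in G444E, and 4 and 3 against 2 and 1 with the tag. A442M libraries thus lay above G444E libraries in both tag states. These are small numbers, and how many of all genes have this order was not counted.

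Other cell cycle genes gave a wider view. The list held 54 genes, such as those of replication licensing, the spindle checkpoint, cohesin and the partners of E2F and MYC, and they had 300 regions. A region called in all libraries lay near 25 of the 54 (46.3%, against 40.6% of protein-coding genes), and 35 of their regions were of this kind (11.7%, against 13.8%). TFDP2, a dimer partner of E2F factors, led with 3 such regions out of 15. By limma 7 of the 54 rose with the tag and 0 fell, against 17.9% and 1.29% of all genes, and 0 passed in any genotype contrast. Differences between this list and the 42 genes were not tested.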

How the data were processed

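Each of the 12 deposited lists holds the peaks of 1 library. MACS2 2.1.4, FastQC and build hg38 are named per the submitters' processing notes; no aligner, control or filter is named there. The deposited score per peak is the authors' own value on an unnamed scale (at least 5.00 in every list) and was used for ranks and filters inside single lists alone. Peaks (433307) were merged at 1 bp of overlap into 78999 regions. Genes came from RefSeq GRCh38.p14, on whose chromosomes positions equal those of hg38. Coordinates are 1-based.

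Fisher's exact tests (two-sided, adjusted over regions that could reach p = 0.05) and limma 3.58.1 in R 4.3.3 (log2 of regions plus a pseudocount of 1, trended variance) were run over the whole tables and tested on simulated data. The counts simulated for limma held no difference in list length, replicate or library group besides the tag, so they do not cover those. Values used Python 3.11.15 and scipy 1.17.1. The 42 genes and all lists were chosen with earlier results of these data known. Every one of the 42 is accounted for; those described by library led their role group, passed a test or held a top one-sided region. That replicate numbers pair libraries was read from the data: over 15 pairs of groups, replicate differences correlated at 0.113 to 0.290 across regions. The main limma fits and Fisher tests do not use this pairing, and the replicate block is an alternative run. The other 2 samples were not analysed.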

Additional observations from a re-analysis of the deposited data

How the results depend on the processing

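Counting error has no interval here, since the lists carry no reads. Regions called in all libraries numbered 40, near 24 genes; where a call needed peaks over 50% or more of a region, there were 13, near 12 genes, and a window of 10 kb gave 14 genes. Leaving out 1 library gave 40 to 45 regions near 24 to 26 genes, and leaving out the untagged WT and A442M libraries (chosen after seeing the data) 57 near 27.

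One-sided regions are given here with both directions summed, and settings that turn a direction stand beside each pair above. Shares of all regions under the alternative settings were not counted, here or above. The summed counts moved past 1.5 times as follows. A score of at least 10 gave 11 for A442M against WT (7 as reported), 11 for G444E against WT (17), 11 for G444E-FLAG against WT-FLAG (6) and 4 for G444E-FLAG against G444E (9). Equal lists gave 11 for A442M-FLAG against G444E-FLAG (22), 25 for WT-FLAG against WT (44) and 22 for A442M-FLAG against A442M (39). With 50% cover, A442M against G444E had 14 (9) and A442M-FLAG against G444E-FLAG 35 (22). Leaving out 1 of the 4 libraries loosens the rule and gave, in the order of those 9 pairs, 19 to 28 (A442M against WT), 30 to 41 (G444E against WT), 21 to 31 (A442M against G444E), 41 to 50 (A442M-FLAG against WT-FLAG), 22 to 37 (G444E-FLAG against WT-FLAG), 38 to 51 (A442M-FLAG against G444E-FLAG), 54 to 73 (WT-FLAG against WT), 54 to 73 (A442M-FLAG against A442M) and 18 to 56 (G444E-FLAG against G444E).

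By limma, the 15 genes that rose with the tag became 2 with equal lists (of all genes 273 of 16360 rose), 4 with a window of 10 kb (CDK6, E2F5, E2F8 and RBL2; 1305 of 13999), 0 without the untagged WT and A442M libraries (54 of 17070) and 6 to 17 without 1 library. Over all genes, the runs without 1 library gave 1265 of 17573 to 4741 of 17705. With the replicate number as a block the 15 became 18 (4513 of 17721). For A442M against G444E, 1 gene rose with that block (CDK1; 359 of 17721 genes) and 1 with a window of 10 kb (RBL2; 89 of 13999). A442M against WT, G444E against WT and both Fisher tests stayed at 0 under every alternative run, the block and each left-out library included. For the Fisher tests this says little, since a region can pass only if many others reach the smallest exact p. The cause of the changes in count was not tested. Equal lists and the narrower window hold fewer regions by construction. Without the untagged WT and A442M libraries the tag term rests on G444E alone.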

Other observations

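Replicate number went with the calls at several of these genes (a pattern noticed in these data). CDKN1A had more regions in replicate 1 than in replicate 2 in all 6 groups (4 and 3 in WT, 6 and 3 in A442M, 4 and 2 in G444E, 6 and 4 in WT-FLAG, 8 and 2 in A442M-FLAG, 8 and 3 in G444E-FLAG). CDK4, CDC25C and E2F1 did so too, and 0 of the 42 genes went the other way. Over all genes with a region 6.09% had more in replicate 1 in all groups and 0.181% had more in replicate 2. Replicate 1 had the longer list in every group.

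Ranks within the lists ran in both directions. Of the 40 regions called in all libraries, 13 had a higher percentile in replicate 1 in all 6 groups (32.5%, against 26.9% of all such regions) and 6 in replicate 2 (15%, against 13.1%). The region inside ELMO3, just beyond E2F4 (chromosome 16, 67199013 to 67200160) had percentiles of 72.0 and 39.7 in WT, 71.5 and 23.8 in A442M, 59.4 and 7.05 in G444E, 63.4 and 3.18 in WT-FLAG, 22.3 and 11.8 in A442M-FLAG and 53.0 and 29.7 in G444E-FLAG, replicate 1 first. The region inside RBL1 (chromosome 20, 37014629 to 37015778) went the other way, with 49.5 and 64.8, 83.2 and 92.8, 70.8 and 88.8, 81.4 and 91.0, 67.5 and 89.1, and 71.9 and 89.2 in the same groups. The lists differ in length, so these ranks show no change in binding, and the labels do not say what the numbers share.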
